A study of Rattus norvegicus with 12 samples.

Results

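Aldosterone (ALD), the mineralocorticoid hormone of the adrenal cortex, was set against its ethanol vehicle in primary cultures of rat heart muscle cells. The arrays were chosen by their titles, as the ALD and the vehicle array of each of 2 experiments, which gave 4 of the 12 arrays of the series. The cultures were ventricular cardiomyocytes of 1-day-old Wistar rats, separated from cardiac fibroblasts by how fast the cells attach to a dish. All cultures used here had spent 24 h in OPTI-MEM, a reduced-serum medium, and were then exposed for 3 h to ALD, to corticosterone (COR), to cortivazol (CVZ) or to ethanol. COR is the main natural glucocorticoid of the rat and CVZ is a synthetic glucocorticoid. The labels name no transgene, and the ligand doses are not in the labels, so ligand and dose cannot be told apart. The 4 arrays of cultures pretreated with 10 µM RU486, a receptor antagonist, were not used. RNA was read on Affymetrix arrays, and each signal is the deposited value on a linear scale on which the median of every array is 1.

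Aldosterone binds the mineralocorticoid receptor (MR, gene Nr3c2) and, less tightly, the glucocorticoid receptor (GR, gene Nr3c1), and both are transcription factors that recognise the same kind of DNA element. In kidney epithelium the enzyme HSD11B2 inactivates glucocorticoids, which leaves the MR to aldosterone. Cardiomyocytes have little of that enzyme, so in the heart glucocorticoids can occupy the MR as well.

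Because the ALD and vehicle arrays share an experiment, the change of a probe set was taken as log2 of ALD minus log2 of vehicle within each experiment, after a pseudocount of 0.0682 had been added to the signals. A fit with limma over the 8 arrays without RU486, with the experiment as a block, gave the mean change, its standard error (written after ±) and a Benjamini-Hochberg adjusted p over 18625 tested probe sets. A probe set was called at an adjusted p below 0.05. COR and CVZ arrays lend their spread to this fit, since ALD and vehicle had 2 arrays each. The labels do not say whether the experiments were separate cell preparations, so the spread behind the p-values is that of these arrays alone. The median signal before division to 1 was 24.4 and 33.7 in the ALD arrays and 22.7 and 23.8 in the vehicle arrays. Its part in the results was not tested. Of the 16 cardiomyocyte markers on the array all passed the filter on low signals, and their summed signal was 3061 and 3058 with ALD against 3239 and 3033 with vehicle. The 12 fibroblast markers summed to 517.9 and 278.1 with ALD against 609.3 and 277.5 with vehicle, so the experiments differed more than the treatments did. In these bulk cultures, fewer cells of a type and less RNA per cell cannot be told apart.

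Most of the changes called under aldosterone were rises. Of the 18625 tested probe sets 188 were called up (1.01%) and 16 were called down (0.0859%). Counted as named genes, with 1 probe set each, 105 of 10118 genes rose (1.04%) and 10 fell (0.0988%). All 204 called probe sets had the same sign in both experiments, and in 185 of them the ALD and vehicle signals did not overlap. A call asks for a change that is large beside its spread between the experiments, which favours both counts. Neither count, nor the overlap given for single genes below, adds support to the calls. The shares over all tested probe sets were not counted. The calls rest on the pairing and on the shared variance: without the block 14 probe sets were called up and 0 down, and without the mean-variance trend 17 up and 0 down. At an unadjusted p below 0.05 those settings gave 399 and 1440 of the 18625 probe sets. With no change at all a share of 0.05 is expected there, and the 399 lie under it. Leaving out the second ALD array left 105 called up, leaving out the second vehicle array left 125, and leaving out the first vehicle array left 7 called down.

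Sign and size were then compared between the experiments without any test. A probe set was taken to agree when it changed at least 1.5-fold the same way in both and the larger log2 difference was at most 2 times the smaller. By this rule 228 probe sets agreed upward (1.22%) and 114 downward (0.612%), of which 114 and 10 were also called. The other 80 called probe sets changed under 1.5-fold in an experiment (76) or differed more in size (4). At 1.5-fold in both experiments 382 probe sets had the same sign and 227 had opposite signs. At 3-fold 22 had the same sign, all upward, and 2 had opposite signs.

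**Figure D1:**
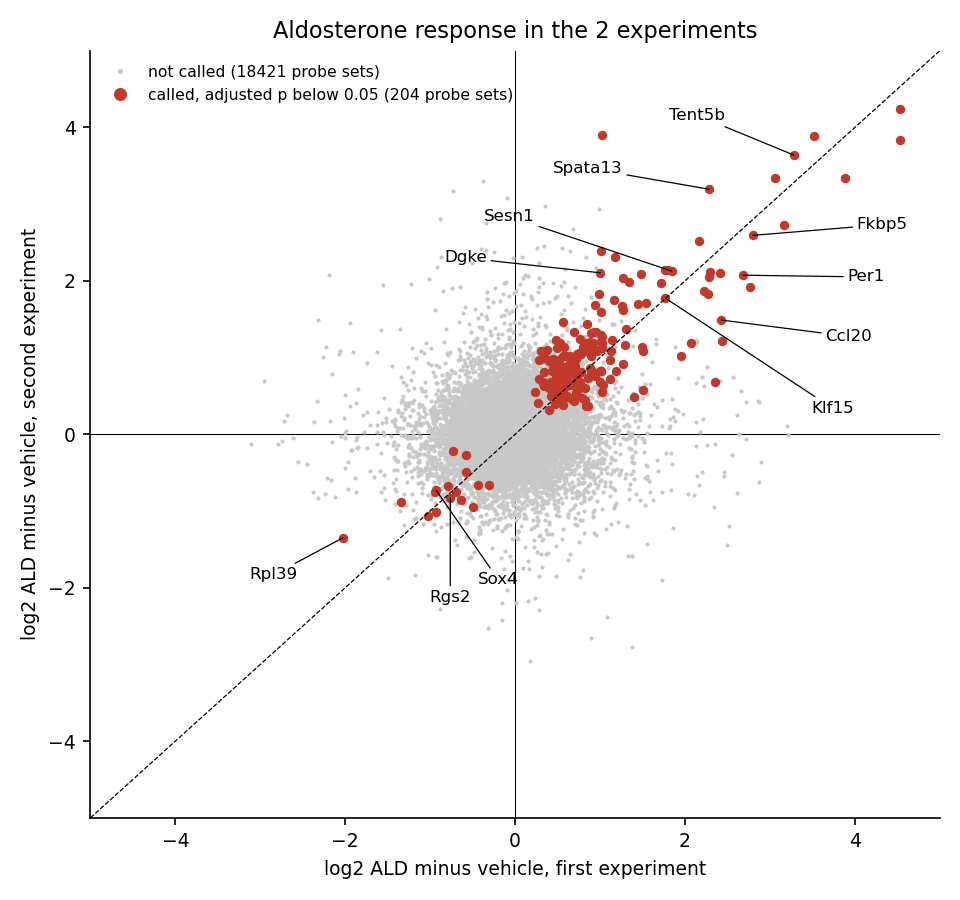
Each point is a tested probe set, with its log2 difference of ALD minus vehicle in the first experiment on the x axis and in the second on the y axis. The 204 called probe sets (red) lie in the upper right and lower left quadrants, and the dashed line marks equal change.

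The agreement followed the signal. In the lowest tertile of mean signal 228 probe sets had the same sign at 1.5-fold and 209 had opposite signs. In the middle tertile the counts were 78 and 17, and in the highest tertile 76 and 1. Across probe sets the 2 differences correlated at 0.0241, 0.228 and 0.485 in these tertiles of 6208, 6208 and 6209 probe sets. The 2 differences share no array, but probe sets are not independent replicates. Agreement of dim probe sets was therefore little more frequent than disagreement, and the genes named below are mainly called ones.

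**Figure D2:**
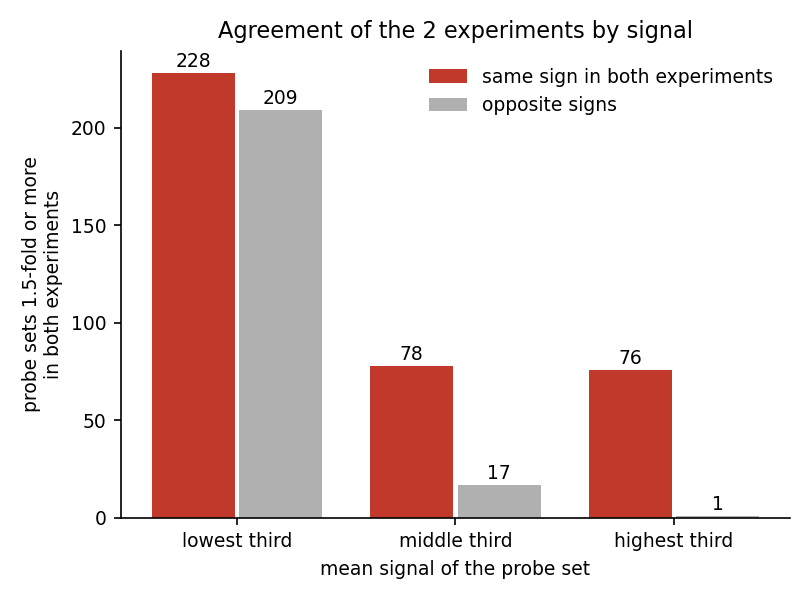
Bars count the probe sets that changed at least 1.5-fold in both experiments, in the same direction (red) or in opposite directions (grey), by tertile of mean signal on the x axis. In the highest tertile 76 had the same sign and 1 had opposite signs.

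The receptors themselves were not called. Nr3c1 had signals of 9.07 and 8.92 in the ALD arrays against 11.6 and 9.54 in the vehicle arrays, a difference of log2 -0.22 ± 0.13 (95% interval -0.49 to 0.05, adjusted p = 0.662). Nr3c2 had signals of 2.89 and 2.64 in the ALD arrays against 3.45 and 1.76 in the vehicle arrays (log2 0.16 ± 0.24, 95% interval -0.34 to 0.66, adjusted p = 0.914), with opposite signs in the experiments. Hsd11b1, the enzyme that regenerates active glucocorticoid, stood at 11.7 and 3.41 with ALD against 11.1 and 3.28 with vehicle (log2 0.07 ± 0.14, adjusted p = 0.938). Of 14 tested receptors, chaperones and steroid enzymes only Fkbp5 was called, and the list median was 0.10 against 0.03 over all genes tested. The share of all tested genes that rose was 1.04%. Hsd11b2 did not pass the filter on low signals.

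Fkbp5 encodes a co-chaperone that lowers the hormone affinity of steroid receptors and is itself induced by them. Its signal was 10.9 and 13.4 in the ALD arrays against 1.52 and 2.17 in the vehicle arrays, a 6.47-fold rise (log2 2.69 ± 0.13, adjusted p = 1e-09). The groups lay far apart, and the change was alike in the experiments (log2 2.80 and 2.59). Fkbp5, F3, Rasgrp1, Sesn1 and Tent5b were the 5 of 115 called genes that kept their call under every alternative setting run.

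Textbook targets of the GR formed the list with the most calls: 11 of 26 tested members rose and 0 fell, with a median of 0.52. Over the 10118 tested genes the shares were 1.04% up and 0.0988% down, and the median was 0.03. The same shares apply beside each list below. This list was chosen with earlier results of these data known. Per1, a repressor of the circadian clock, had 1.62 and 3.83 in the ALD arrays against 0.194 and 0.857 in the vehicle arrays (log2 2.38 ± 0.26, adjusted p = 3.3e-05). The second experiment was higher in both groups, and within each experiment ALD was the higher array. Klf15, a Kruppel-like factor that holds back hypertrophy and governs amino acid breakdown, had 12.2 and 17.5 with ALD against 3.53 and 5.08 with vehicle (log2 1.77 ± 0.11, adjusted p = 1.5e-08). Klf9, a related factor, had 28.0 and 23.6 with ALD against 15.3 and 10.6 with vehicle (log2 1.01 ± 0.10, adjusted p = 7.6e-06). Both rose without overlap, by log2 1.77 and 1.77 for Klf15 and 0.87 and 1.15 for Klf9 in the experiments. Cebpb, a bZIP factor of the acute phase response, had 5.16 and 5.43 with ALD against 2.53 and 2.17 with vehicle (log2 1.15 ± 0.16, adjusted p = 0.00053). Bcl6, a transcriptional repressor, had 16.5 and 15.1 with ALD against 11.0 and 9.10 with vehicle (log2 0.65 ± 0.11, adjusted p = 0.00325). Cdkn1a, an inhibitor of the cell cycle, had 9.87 and 19.2 with ALD against 7.32 and 12.4 with vehicle (log2 0.53 ± 0.10, adjusted p = 0.0146), so its groups overlapped and its call rests on the pairing. A second Cdkn1a probe set (log2 0.39) was not called. Per1 was the 1 call among 18 tested clock genes. Klf9, Klf15 and Cebpb were the 3 among 15 tested Kruppel-like and C/EBP factors. Each of these genes was already counted among the GR targets, so neither list is a separate result. The calls of Bcl6 and Cdkn1a were lost when an array was left out, with adjusted p of 0.0626 for Bcl6 without the second vehicle array. For Cdkn1a it was 0.0518 without the first ALD array, 0.169 without the second ALD array and 0.153 without the second vehicle array.

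**Figure D3:**
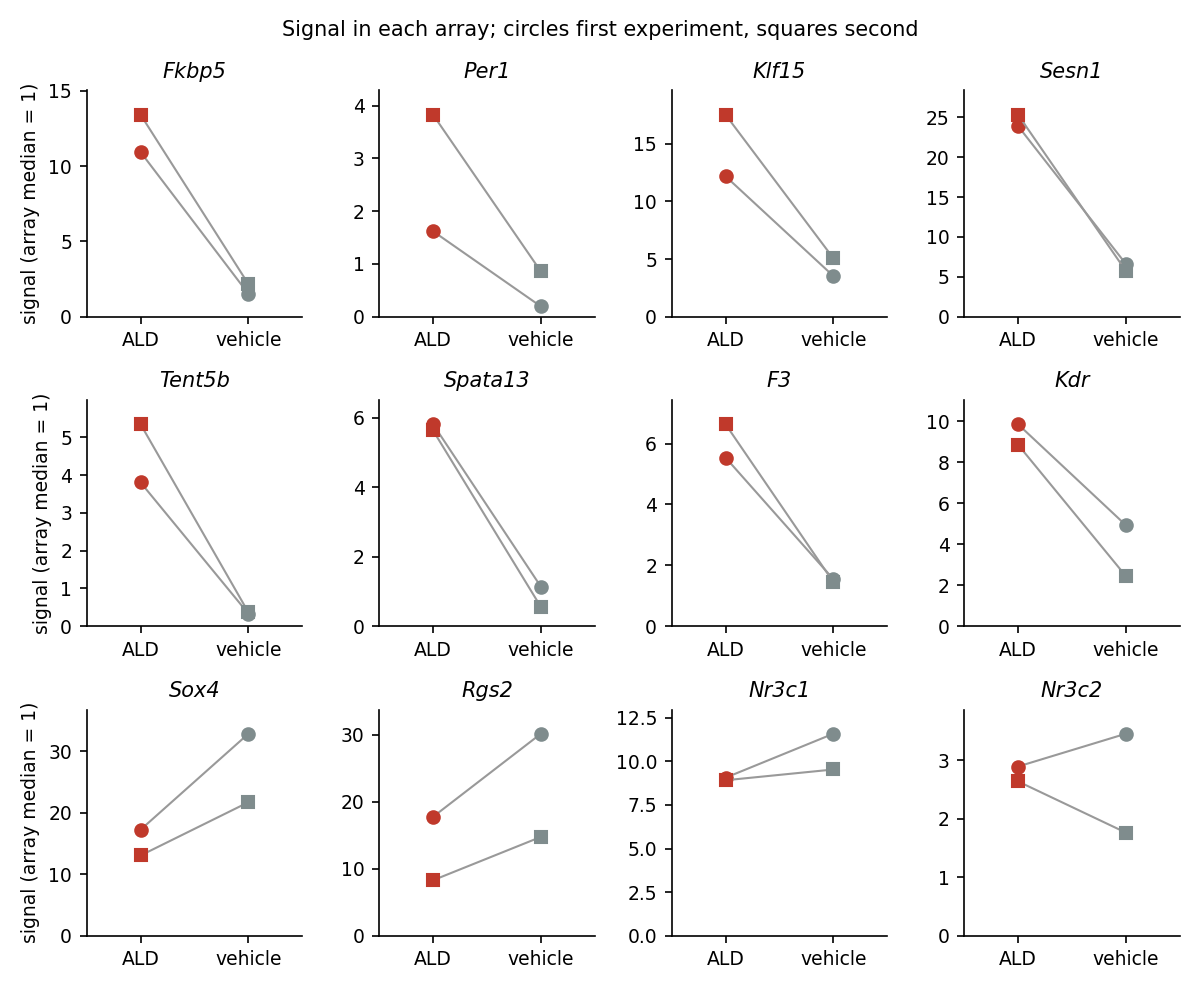
Each panel shows the signal of a gene (y axis, array median 1, from 0) in the ALD and the vehicle arrays, with circles for the first experiment, squares for the second and lines joining the arrays of an experiment. Fkbp5, Per1, Klf15, Sesn1, Tent5b, Spata13, F3 and Kdr were higher with ALD in both experiments, Sox4 and Rgs2 were lower in both, and Nr3c1 and Nr3c2 were not called.

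Several well-known GR targets were not called. Tsc22d3 (GILZ), an anti-inflammatory leucine zipper protein, had 18.6 and 18.3 in the ALD arrays against 16.0 and 14.0 in the vehicle arrays (log2 0.30 ± 0.10, adjusted p = 0.294). Sgk1, a kinase that both receptors induce in kidney, had 9.64 and 3.49 with ALD against 6.55 and 2.86 with vehicle (log2 0.42 ± 0.16, adjusted p = 0.386). Dusp1, a phosphatase that switches off MAP kinases, had 6.68 and 5.35 with ALD against 5.18 and 6.21 with vehicle (log2 0.08 ± 0.17, 95% interval -0.28 to 0.43). Sgk1 and Tsc22d3 were higher with ALD in both experiments, while Dusp1 was higher in the first and lower in the second.

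Among 17 tested mineralocorticoid targets 3 rose (Per1, Usp2 and Orm1) and 1 fell (Rgs2), with a median of 0.20. Of all tested genes 1.04% rose and 0.0988% fell. Per1 was already counted among the GR targets above, so this list is not separate from that one. Usp2, a deubiquitinase of the aldosterone response in kidney, had 14.8 and 21.0 in the ALD arrays against 11.7 and 13.5 in the vehicle arrays (log2 0.49 ± 0.11, adjusted p = 0.0441). Orm1, which encodes the plasma protein alpha-1-acid glycoprotein, had 0.709 and 0.724 with ALD against 0.132 and 0.324 with vehicle (log2 1.49 ± 0.29, adjusted p = 0.0124). Its mean over the ALD and vehicle arrays (0.469, pseudocount included) lay under the filter's floor of 0.628, so it was tested only because it was higher in the COR and CVZ arrays. Its call therefore does not support the count, which is 2 rises without it. Of all 204 called probe sets 6 passed the filter in that way, 4 unnamed ones, Orm1 and Exoc8. The rise was log2 1.96 and 1.02 in the experiments, and with the pseudocount at the 25th percentile the fitted change was 0.97. The Orm1 call was lost without the first vehicle array (adjusted p = 0.136) and without the first ALD array (0.0884), with no filter (0.0686) and with all 12 arrays (0.0664). That of Usp2 was lost without either vehicle array (0.0532 and 0.277) and without the second ALD array (0.408). The epithelial sodium channel subunits Scnn1b (0.557 and 0.739 with ALD against 0.322 and 0.912 with vehicle) and Scnn1g (0.684 and 0.570 with ALD against 0.573 and 0.992 with vehicle) were dim and not called. Of 15 tested genes of sodium and water transport 0 were called in limma, and their median was -0.02.

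Rgs2, which speeds the shut-off of Gq signalling and so limits hypertrophic agonists, fell. Its signal was 17.8 and 8.28 in the ALD arrays against 30.2 and 14.8 in the vehicle arrays (log2 -0.80 ± 0.10, adjusted p = 0.00028). Pooled, the groups overlapped, with the first experiment higher in both, and the fall was alike in the experiments (log2 -0.76 and -0.83). The fitted log2 change of Rgs2 differed in sign between the ligands, at -0.80 under ALD, -0.65 under COR and 0.40 under CVZ. ALD was lower than CVZ (log2 -1.19 ± 0.10, adjusted p = 1.3e-06), and the comparisons share their vehicle arrays.

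Promoter letters were read from RefSeq (build GRCr8) as windows from 250 bases before to 50 after the annotated start of each gene, and 83 of the 105 genes that rose and 8 of the 10 that fell had a window. The search covered 3 forms of the element that steroid receptors recognise, on both strands. The half-site AGAACA, which is TGTTCT when read on the other strand, stood in 8 of the 83 windows of genes that rose (9.64%), against 12% of the 8470 windows of tested genes and 20.7% of all 33469 windows. The loose core, GNACA, then 3 bases of any kind, then TGTNC, stood in 2 of the 83 (2.41%), against 0.439% of all windows and 0.248% of those of tested genes. The strict form, which is AGAACA and then, after 3 bases of any kind, TGTTCT, holds both the core and the half-site, and it stood in 0 of the 83 and in 0.0149% of all windows. None of the 8 windows of genes that fell held any of the 3 forms. These shares were not tested, and nothing is read from them. The windows of Orm1 and Lrrc10 are shown because they hold the core, in capitals, and were chosen after the matches were seen. These are the 2 matches among genes that rose. Orm1 was tested only through its COR and CVZ signals, so its match does not support that share. The Orm1 window lies at chr5:81788259-81788558 on the plus strand, and its match begins 130 bases before the start. The Lrrc10 window lies at chr7:54572685-54572984 on the plus strand, and its match begins 141 bases before the start. A match is a description of these letters and does not show binding.
Orm1: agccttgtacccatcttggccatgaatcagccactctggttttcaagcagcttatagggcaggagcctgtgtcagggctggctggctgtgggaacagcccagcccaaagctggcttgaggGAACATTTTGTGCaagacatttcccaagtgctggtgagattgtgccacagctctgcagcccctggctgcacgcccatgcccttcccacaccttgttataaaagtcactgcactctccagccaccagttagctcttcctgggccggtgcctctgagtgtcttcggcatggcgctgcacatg
Lrrc10: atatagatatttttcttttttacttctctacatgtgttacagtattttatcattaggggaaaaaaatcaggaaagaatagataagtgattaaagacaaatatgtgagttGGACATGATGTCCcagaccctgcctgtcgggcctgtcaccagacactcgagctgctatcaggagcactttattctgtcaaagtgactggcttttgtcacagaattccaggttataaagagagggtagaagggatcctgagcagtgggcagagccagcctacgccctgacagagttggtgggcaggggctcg

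Lrrc10, a leucine-rich repeat protein of cardiomyocytes, rose, with 135 and 150.2 in the ALD arrays against 72.4 and 73.9 in the vehicle arrays, a 1.94-fold change (log2 0.96 ± 0.07, adjusted p = 2.6e-07). Its groups did not overlap. It was outside the naming rule and was chosen after its values were seen, as were the following genes of heart muscle. Myoz2, a Z-disc protein that binds calcineurin, had 121 and 74.9 with ALD against 89.6 and 53.0 with vehicle (log2 0.46 ± 0.08, adjusted p = 0.003). Trim54, a muscle ubiquitin ligase, had 60.6 and 59.8 with ALD against 41.2 and 44.0 with vehicle (log2 0.50 ± 0.08, adjusted p = 0.0022). Abra, an actin-binding protein of striated muscle, had 27.9 and 20.6 with ALD against 18.2 and 11.8 with vehicle (log2 0.71 ± 0.11, adjusted p = 0.00101). The Trim54 and Abra groups did not overlap, and those of Myoz2 overlapped, with ALD the higher array within each experiment. Adcy6, an adenylyl cyclase of heart muscle, had 22.3 and 30.1 with ALD against 13.4 and 14.8 with vehicle (log2 0.87 ± 0.10, adjusted p = 6.5e-05). Of 16 tested cardiomyocyte markers 0 were called, with a median of -0.01, for example Myh6 at 319 and 312 with ALD against 341 and 317 with vehicle (log2 -0.06 ± 0.06, adjusted p = 0.849).

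Of 20 tested genes that restrain insulin and mTOR signalling 4 rose and 0 fell, with a median of 0.23, while 1.04% of all tested genes rose. Sesn1, Ddit4 and Pik3r1 were already counted among the GR targets above, so this list is not a separate result. Sesn1, a sestrin that restrains mTORC1, had 23.9 and 25.3 in the ALD arrays against 6.62 and 5.74 in the vehicle arrays, a 3.96-fold change (log2 1.99 ± 0.10, adjusted p = 1.4e-09). Ddit4 (REDD1), another inhibitor of mTORC1, had 10.6 and 7.79 with ALD against 5.97 and 5.10 with vehicle (log2 0.72 ± 0.12, adjusted p = 0.00377). Pik3r1, the regulatory subunit of PI3 kinase, had 4.18 and 3.35 with ALD against 2.49 and 1.97 with vehicle (log2 0.74 ± 0.15, adjusted p = 0.0209). Foxo3, a transcription factor held back by insulin, had 11.8 and 13.3 with ALD against 8.66 and 8.85 with vehicle (log2 0.51 ± 0.11, adjusted p = 0.0264). In all 4 the ALD and vehicle signals did not overlap. The calls of Ddit4, Pik3r1 and Foxo3 were lost when an array was left out: the adjusted p was 0.0873 for Ddit4 without the first ALD array. Without the first and second ALD and the first and second vehicle arrays in turn it was 0.0539, 0.207, 0.142 and 0.0576 for Pik3r1 and 0.0658, 0.239, 0.0711 and 0.141 for Foxo3. Sesn2 (-0.20) and Sesn3 (-0.74), the other sestrins, had log2 differences below 0 and were not called. Depp1, a FoxO target chosen after its values were seen, had 37.4 and 19.5 with ALD against 17.2 and 9.90 with vehicle (log2 1.05 ± 0.09, adjusted p = 3.4e-06).

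Of 16 tested genes of atrophy and autophagy 2 rose and 0 fell, while 1.04% of all tested genes rose and 0.0988% fell. Map1lc3a, an LC3 protein of the autophagosome, had 26.6 and 31.6 with ALD against 19.1 and 23.9 with vehicle (log2 0.44 ± 0.09, adjusted p = 0.0284). Ctsl, a lysosomal protease, had 84.4 and 53.3 with ALD against 70.1 and 40.1 with vehicle (log2 0.34 ± 0.08, adjusted p = 0.0414). Both calls were lost without single arrays, with adjusted p of 0.0705 to 0.169 for Map1lc3a without any of the 4 arrays in turn. For Ctsl it was 0.119 and 0.332 without the first and second ALD array and 0.206 without the second vehicle array. The muscle ubiquitin ligases Fbxo32 (2.61 and 2.56 with ALD against 1.80 and 1.66 with vehicle, adjusted p = 0.265) and Trim63 (17.2 and 26.4 with ALD against 16.4 and 19.8 with vehicle, adjusted p = 0.542) were not called. In the list of amino acid catabolism 1 of 15 rose, Prodh, the first enzyme of proline breakdown, at 3.13 and 2.49 with ALD against 1.40 and 1.48 with vehicle (log2 0.92 ± 0.19, adjusted p = 0.0204). The Prodh call was lost without the first ALD array (adjusted p = 0.335) and without the first and second vehicle arrays (0.113 and 0.107).

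Pnpla2, the lipase that starts the breakdown of stored triglyceride, had 6.71 and 8.43 in the ALD arrays against 4.52 and 5.66 in the vehicle arrays (log2 0.57 ± 0.13, adjusted p = 0.0485). G0s2, which encodes the protein inhibitor of that lipase, had 42.8 and 28.6 with ALD against 57.7 and 45.2 with vehicle and fell (log2 -0.55 ± 0.10, adjusted p = 0.00765). Neither pair of groups overlapped. Ppargc1a, a coactivator of mitochondrial genes, had 15.8 and 17.9 with ALD against 11.1 and 11.5 with vehicle (log2 0.57 ± 0.10, adjusted p = 0.00714). Pnpla2 stood just inside the threshold, and without 1 array its adjusted p was 0.0658 to 0.393, over the 2 ALD and 2 vehicle arrays. The adjusted p was 0.158 for G0s2 and 0.135 for Ppargc1a without the second ALD array, and 0.0916 and 0.0563 without the second vehicle array. Pnpla2 and Ppargc1a were the 2 of 21 tested fatty acid genes that were called, and the list median was 0.05. The share of all tested genes that rose was 1.04%. Of 20 tested genes of glucose use 0 were called in limma, including Pdk4, the kinase that shuts pyruvate out of the mitochondrion (7.63 and 7.24 with ALD against 6.95 and 4.15 with vehicle, log2 0.46 ± 0.15, adjusted p = 0.228).

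The largest rise of a named gene was that of Tent5b, of a family of poly(A) polymerases, with 3.80 and 5.34 in the ALD arrays against 0.330 and 0.366 in the vehicle arrays, an 11.0-fold change (log2 3.46 ± 0.17, adjusted p = 1e-09). Spata13 had 5.81 and 5.63 with ALD against 1.14 and 0.555 with vehicle (log2 2.74 ± 0.19, adjusted p = 1.6e-07). A second probe set of Tent5b rose by log2 4.39. The vehicle signals of Tent5b and Spata13 were low, and with the pseudocount at the 25th percentile the fitted changes were 2.89 for Tent5b and 2.44 for Spata13. Exoc8, a subunit of the exocyst, had 1.01 and 1.38 with ALD against 0.154 and 0.340 with vehicle (log2 2.05 ± 0.43, adjusted p = 0.0219), and its call was lost without the first ALD array (adjusted p = 0.125), the second ALD array (0.238) or the first vehicle array (0.16). Exoc8 too passed the filter only through the COR and CVZ arrays. Signals of Tent5b, Spata13 and Exoc8 did not overlap between the groups. Etfbkmt, a methyltransferase of a mitochondrial electron carrier, had 6.18 and 5.78 with ALD against 2.08 and 1.71 with vehicle (log2 1.63 ± 0.14, adjusted p = 2.4e-06). A second Etfbkmt probe set was not called and stood at log2 -0.06. Sult1a1, a phenol sulfotransferase, had 2.36 and 2.11 with ALD against 0.648 and 0.424 with vehicle (log2 1.95 ± 0.21, adjusted p = 3.3e-05). Tob2, of a family of antiproliferative proteins, had 5.37 and 10.2 with ALD against 2.35 and 3.00 with vehicle (log2 1.46 ± 0.15, adjusted p = 1.9e-05). Rhobtb1 had 7.64 and 9.38 with ALD against 3.06 and 3.57 with vehicle (log2 1.34 ± 0.12, adjusted p = 3.5e-06). None of these 4 overlapped between groups.

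Rasgrp1, a Ras activator that responds to diacylglycerol, had 2.48 and 2.61 in the ALD arrays against 0.502 and 0.399 in the vehicle arrays (log2 2.34 ± 0.23, adjusted p = 7.6e-06). Dgke, a kinase that consumes diacylglycerol, had 4.93 and 6.12 with ALD against 2.43 and 1.37 with vehicle (log2 1.55 ± 0.20, adjusted p = 0.00019). Rasd1, a Ras-like protein known to be induced by dexamethasone, had 2.45 and 1.91 with ALD against 0.974 and 0.576 with vehicle (log2 1.45 ± 0.22, adjusted p = 0.00116). All 3 were higher with ALD in both experiments without overlap, and Dgke rose unequally (log2 1.00 and 2.11). Of 16 tested genes of MAPK and G protein feedback Rasgrp1 and Rasd1 rose and Rgs2 fell. Rasd1 and Rgs2 were already counted in lists above, and 1.04% of all tested genes rose and 0.0988% fell. Egr1, the 1 called member of 14 immediate early genes, had 24.3 and 10.5 with ALD against 12.4 and 4.92 with vehicle (log2 1.03 ± 0.10, adjusted p = 6.8e-06). Its groups overlapped across experiments, and ALD was about as much higher in each (log2 0.96 and 1.09).

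F3, tissue factor, which starts coagulation, had 5.54 and 6.64 in the ALD arrays against 1.55 and 1.45 in the vehicle arrays (log2 1.97 ± 0.14, adjusted p = 1.3e-07). Kdr, a receptor for vascular endothelial growth factor, had 9.86 and 8.86 with ALD against 4.93 and 2.45 with vehicle (log2 1.41 ± 0.18, adjusted p = 0.00018). Ccl20, a chemokine that draws cells with the receptor CCR6, had 10.3 and 3.19 with ALD against 1.85 and 1.09 with vehicle (log2 1.96 ± 0.18, adjusted p = 5.8e-06). In none of the 3 did the groups overlap, and the rise of Kdr was larger in the second experiment (log2 0.99 and 1.83) and that of Ccl20 in the first (log2 2.43 and 1.49). Kdr and F3 were the 2 calls among 17 tested genes of vascular growth and coagulation, while 1.04% of all tested genes rose. Kdr was also the 1 called gene of 8 tested endothelial markers. The 9 markers on the array summed to 29.6 and 18.9 with ALD against 22.6 and 12.6 with vehicle, and without Kdr to 19.8 and 9.99 with ALD against 17.7 and 10.1 with vehicle. Ccl20 was the 1 called gene of 19 tested cytokines and inflammatory genes, whose median was -0.02. Ccl2, a monocyte chemokine, had 43.1 and 10.3 with ALD against 45.2 and 16.3 with vehicle (log2 -0.36 ± 0.19, adjusted p = 0.589), and Ptgs2, cyclooxygenase 2, had 1.68 and 0.608 with ALD against 0.938 and 0.651 with vehicle (log2 0.36 ± 0.26, adjusted p = 0.769).

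Few genes fell. Sox4, a transcription factor of developing tissues, had 17.2 and 13.0 in the ALD arrays against 32.8 and 21.7 in the vehicle arrays (log2 -0.83 ± 0.12, adjusted p = 0.00074). Its groups did not overlap, and 3 of its 4 tested probe sets were called down. Sema6d, a membrane semaphorin, had 6.31 and 4.71 with ALD against 12.1 and 7.96 with vehicle (log2 -0.84 ± 0.16, adjusted p = 0.00795). Stc1, a glycoprotein hormone of calcium and phosphate balance, had 7.67 and 8.79 with ALD against 13.3 and 14.1 with vehicle (log2 -0.73 ± 0.14, adjusted p = 0.0115). Slc37a1, a sugar phosphate exchanger, had 1.45 and 2.38 with ALD against 3.03 and 5.03 with vehicle (log2 -1.04 ± 0.22, adjusted p = 0.0214). Sema6d, Stc1 and Slc37a1 fell without overlap. The largest fall was that of Rpl39, a protein of the large ribosomal subunit, at 0.963 and 2.02 with ALD against 4.14 and 5.25 with vehicle (log2 -1.69 ± 0.30, adjusted p = 0.00541). Nid1, a basement membrane protein, had 29.5 and 11.3 with ALD against 36.5 and 18.0 with vehicle (log2 -0.49 ± 0.11, adjusted p = 0.0334), with overlap between experiments. A second Nid1 probe set (log2 -0.21) was not called. The calls of Rpl39, Sema6d, Stc1, Slc37a1 and Nid1 were each lost without some arrays. Without the first and second ALD and the first and second vehicle arrays in turn the adjusted p of Slc37a1 was 0.151, 0.125, 0.0995 and 0.245. Without the first ALD, the first vehicle and the second vehicle array it was 0.11, 0.056 and 0.0933 for Rpl39 and 0.142, 0.0758 and 0.0904 for Sema6d. For Stc1 it was 0.143 without the second ALD array and 0.154 without the first vehicle array, and for Nid1 0.394 and 0.274 without the second ALD or vehicle array.

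Over all tested genes 1.04% rose and 0.0988% fell, so a list of this size with few or no calls lies near that share and is no result about the list. Of 24 tested genes of extracellular matrix and fibrosis 0 were called in limma, and their median was -0.05. Ccn2, a matrix protein of fibrosis, had 71.6 and 74.6 in the ALD arrays against 74.5 and 56.1 in the vehicle arrays (log2 0.18 ± 0.10, 95% interval -0.03 to 0.38). Col1a1, a chain of type I collagen, had 54.4 and 40.6 with ALD against 74.9 and 39.9 with vehicle (log2 -0.22 ± 0.10, 95% interval -0.44 to -0.00). Of 20 tested genes of oxidative stress, 20 of calcium handling and ion channels and 13 of prostanoid synthesis 0 were called. Of 18 fetal and hypertrophy genes Gata6, a cardiac transcription factor, rose (16.1 and 18.9 with ALD against 11.5 and 10.2 with vehicle, log2 0.68 ± 0.11, adjusted p = 0.0033). Gata6 was called on 1 of its 2 tested probe sets, and the other stood at log2 0.17. Its call was lost without the second ALD array (adjusted p = 0.0846) or the second vehicle array (0.0797). Nppa, atrial natriuretic peptide, had 216 and 139 with ALD against 191 and 137 with vehicle (log2 0.10 ± 0.07, 95% interval -0.05 to 0.25), and Nppb, brain natriuretic peptide, had 69.3 and 26.0 with ALD against 50.2 and 20.7 with vehicle (log2 0.40 ± 0.13, adjusted p = 0.224). No marker of smooth muscle (9 tested), macrophages (7), epicardium (6), erythroid cells (2), Schwann cells (3) or fibroblasts (12) was called. Of the 18625 tested probe sets 1719 had an unadjusted p below 0.05, where a share of 0.05 is expected with no change.

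**Figure D4:**
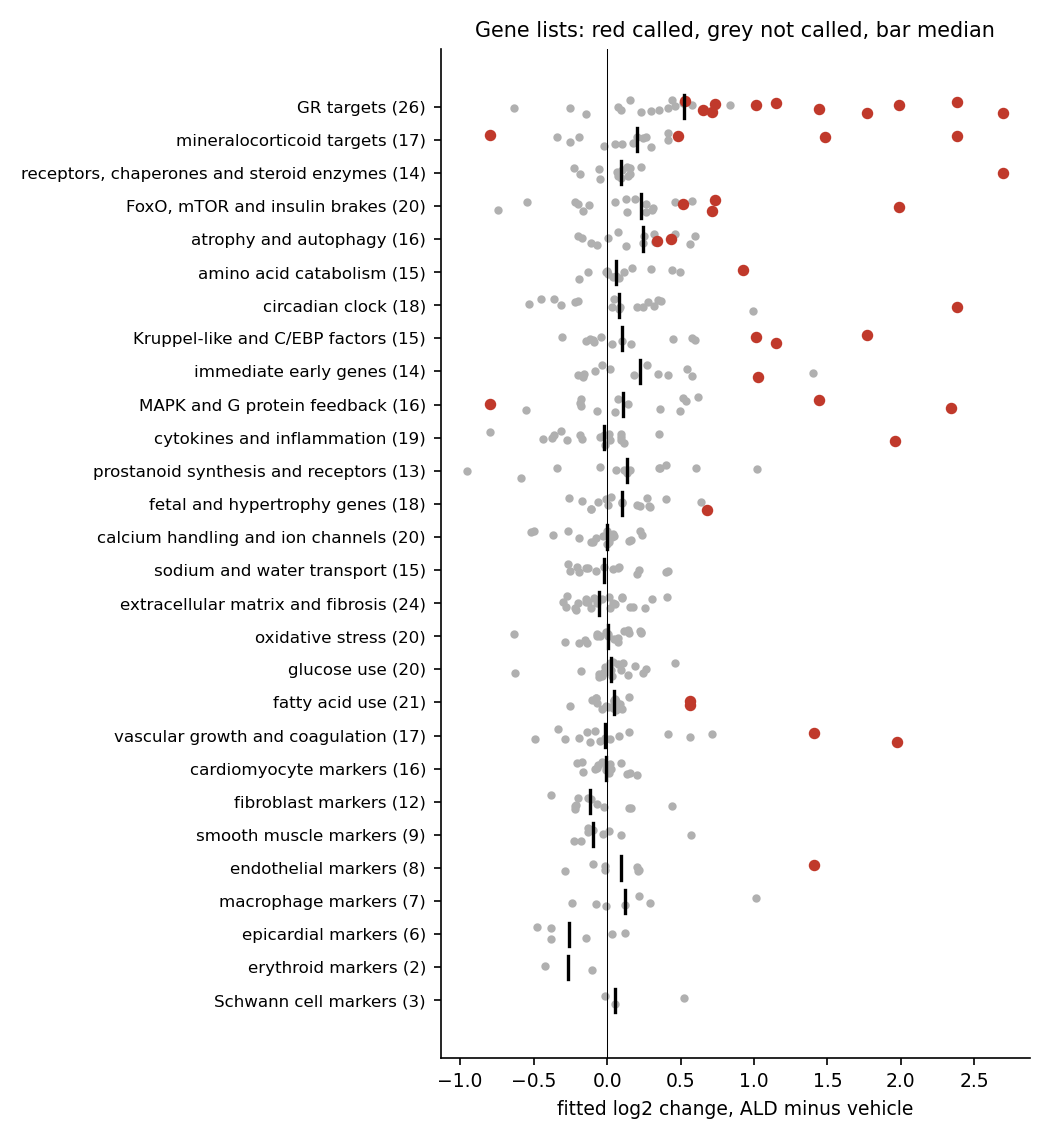
Points are the tested members of each gene list (number in parentheses), with the fitted log2 change of ALD minus vehicle on the x axis. Called members are red, others grey, and the bar is the list median. The GR targets have 11 called members and a median of 0.52, and some genes stand in several lists.

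The same genes were read in the COR and CVZ arrays, whose changes against vehicle share the vehicle arrays with ALD, so the values stand side by side. Over the 188 probe sets called up under ALD the median log2 change was 0.84 under ALD, 1.16 under COR and 1.52 under CVZ. The fitted change was larger under ALD than under COR in 16 of them and larger than under CVZ in 17. The 188 were chosen by their change under ALD, which favours the ALD values here. Fkbp5 changed by 2.69 under ALD, 3.87 under COR and 4.54 under CVZ, Klf15 by 1.77 under ALD, 2.62 under COR and 3.21 under CVZ and Tent5b by 3.46 under ALD, 4.40 under COR and 4.89 under CVZ. Rasgrp1 (2.34 under ALD, 2.58 under COR and 2.64 under CVZ) and Lrrc10 (0.96 under ALD, 1.05 under COR and 1.09 under CVZ) were closer to equal.

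**Figure D5:**
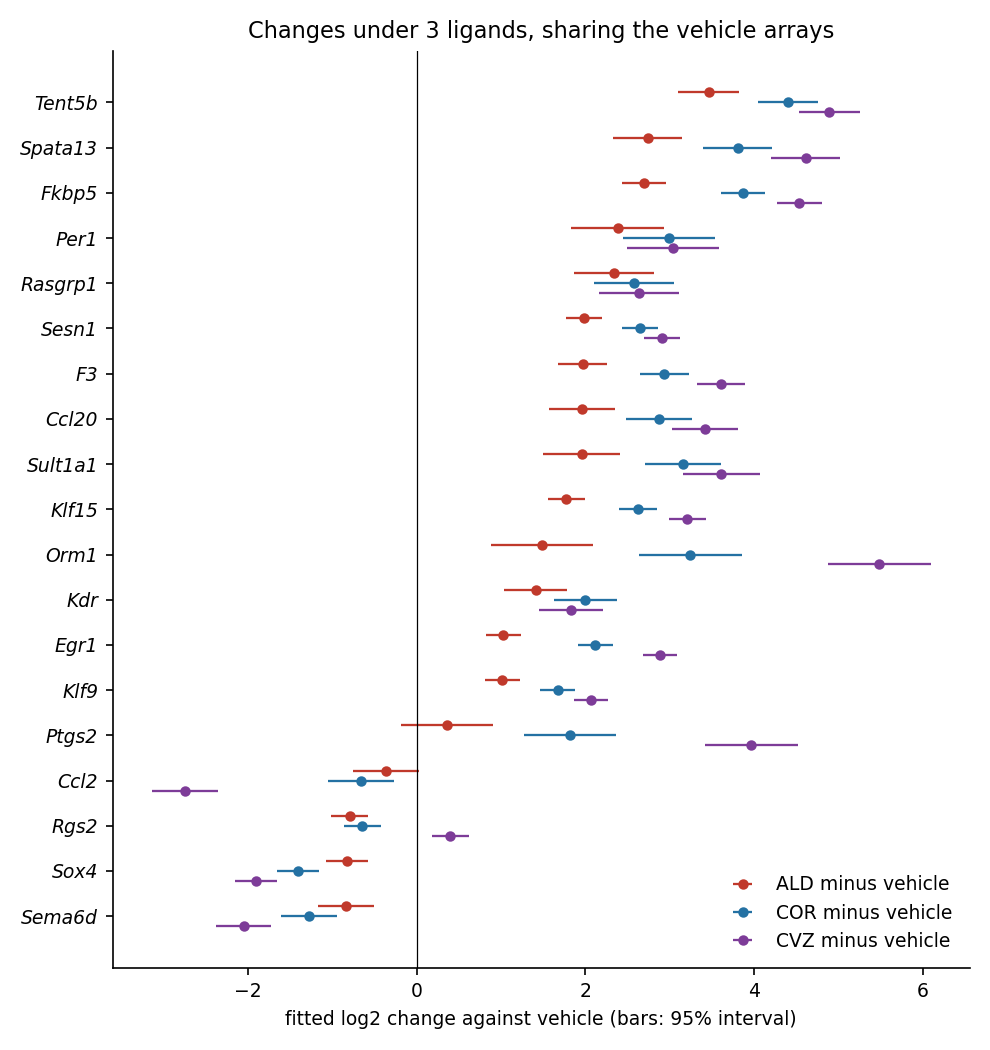
Fitted log2 change against vehicle (x axis, bars are 95% intervals) for 19 genes under ALD (red), COR (blue) and CVZ (purple), 2 arrays each. The 3 changes share the vehicle arrays. Orm1, which passed the filter through the COR and CVZ arrays, and Ptgs2 spread widest, while the intervals of Rasgrp1 overlap.

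ALD was then tested against the other ligands directly. Against COR 6 probe sets were higher in ALD (0.0322%) and 64 were lower (0.344%). Against CVZ 299 were higher in ALD (1.61%) and 529 were lower (2.84%). Of the 188 probe sets that ALD raised, 42 were lower in ALD than in COR and 0 were higher. Against CVZ 114 were lower and 2 were higher. These 188 were chosen with the same ALD arrays, which favours higher values in ALD in both comparisons. Fkbp5 was lower in ALD than in COR (log2 -1.17 ± 0.13, adjusted p = 0.00031) and than in CVZ (log2 -1.84 ± 0.13, adjusted p = 1.6e-07). Klf15 behaved alike (log2 -0.85 ± 0.11, adjusted p = 0.00081 against COR and log2 -1.44 ± 0.11, adjusted p = 1.7e-07 against CVZ). The difference of Rasgrp1 between ALD and COR was log2 -0.23 (95% interval -0.71 to 0.24), and that of Per1 was -0.61 (-1.16 to -0.06, adjusted p = 0.708). Without the block 0 probe sets were called between ALD and COR (253 at an unadjusted p below 0.05), and 13 without the first COR array, 43 without the second COR array and 25 without the first ALD array. Between ALD and CVZ the 828 calls became 522 without the first ALD array, and 532 or 533 without the first or second CVZ array.

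Several genes were called between ALD and COR or between ALD and CVZ. Ptgs2 had log2 differences from vehicle of 0.36 under ALD, 1.82 under COR and 3.97 under CVZ, and ALD was lower than COR (log2 -1.46 ± 0.26, adjusted p = 0.0153). Pfkfb3, a regulator of glycolysis, had log2 differences from vehicle of -0.18 under ALD, 1.81 under COR and 3.05 under CVZ, and was lower in ALD than in COR (log2 -1.99 ± 0.24, adjusted p = 0.00079). Crispld2, a secreted protein, was called up under ALD (3.85 and 3.62 with ALD against 2.65 and 1.55 with vehicle, log2 0.86 ± 0.17, adjusted p = 0.0138) and was still lower than in COR (log2 -1.23 ± 0.17, adjusted p = 0.00219). Its call against vehicle was lost without the second ALD array (adjusted p = 0.178) or the second vehicle array (0.226). The chemokine genes Ccl2 and Ccl7 had log2 differences from vehicle of -0.36 under ALD, -0.66 under COR and -2.75 under CVZ for Ccl2 and of -0.43 under ALD, -0.47 under COR and -3.05 under CVZ for Ccl7, and both were higher in ALD than in CVZ (log2 2.39 ± 0.19, adjusted p = 3.6e-07 for Ccl2). Neither chemokine was called between ALD and COR (log2 0.30 ± 0.19, adjusted p = 0.957 for Ccl2, log2 0.03 ± 0.29 for Ccl7). Sox4 fell under all 3 ligands (-0.83 under ALD, -1.41 under COR and -1.91 under CVZ). It was higher in ALD than in COR (log2 0.58 ± 0.12, adjusted p = 0.0422). The 2 rises higher in ALD than in CVZ were single probe sets of Celf1 and Srsf6, RNA-binding proteins, chosen after their values were seen. That of Celf1 had 18.8 and 18.4 with ALD against 13.1 and 10.5 with vehicle (log2 0.66 ± 0.15, adjusted p = 0.0404; log2 0.77 ± 0.15, adjusted p = 0.00431 against CVZ). The brightest probe sets of Celf1 and of Srsf6 were not called, so neither gene is in the count of genes that rose. Against vehicle the 5 tested probe sets of Celf1 ran from log2 -0.17 to 0.66. The 3 of Srsf6 ran from log2 -0.14 to 0.84.

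Some genes agreed in the experiments without a call. Tg (thyroglobulin on the array's annotation) had 0.930 and 0.801 in the ALD arrays against 0.203 and 0.328 in the vehicle arrays (log2 1.51 ± 0.40, adjusted p = 0.105). Timp4, an inhibitor of matrix metalloproteinases that the heart makes, had 1.06 and 1.43 with ALD against 0.463 and 0.618 with vehicle (log2 1.11 ± 0.30, adjusted p = 0.11). Dlg4, a scaffold protein of synapses, had 0.398 and 0.196 with ALD against 0.987 and 0.874 with vehicle (log2 -1.51 ± 0.50, adjusted p = 0.262). The groups of Tg, Timp4 and Dlg4 did not overlap. Myoz1, a Z-disc protein mainly of skeletal muscle, had 0.221 and 0.365 with ALD against 0.581 and 0.853 with vehicle (log2 -1.13 ± 0.45, adjusted p = 0.414). Tg, Dlg4 and Myoz1 passed the filter only through the COR and CVZ arrays. In all 218 probe sets agreed by the rule without a call. Other genes went opposite ways: Lrch4 had 0.209 and 1.62 with ALD against 1.31 and 0.534 with vehicle, with log2 -2.32 and 1.49 in the experiments. Tbx3, a cardiac repressor, had 1.23 and 0.273 with ALD against 0.322 and 1.21 with vehicle, with log2 1.73 and -1.90. Just inside the threshold of 1.5-fold stood Osbpl3 (log2 0.59 and 0.62), and just outside it stood Rhou (log2 0.58 and 0.89).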

How the data were processed

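The deposited table holds 31099 probe sets of 12 arrays as intensity on a linear scale, MAS5 signals per the submitters' processing notes, with every array's median at 1. Multiplied by a constant found for each array, the values became multiples of 0.1, and that constant is the earlier median. The genome build and any filter were not given in the sources used here. Arrays have no depth, and their number limits the precision. The 57 control probe sets were set aside. A pseudocount of 0.0682, the 10th percentile, was added, log2 was taken, and probe sets with a mean above the 40th percentile were tested: 18625, which stand for 10118 named genes. Changes were fitted with limma 3.58.1 under R 4.3.3 (lmFit, eBayes with trend) on 4 groups with the experiment as a block (3 residual and 13.7 prior degrees of freedom). The script was tested on simulated data first. After group means were removed, arrays of an experiment deviated together (0.514 to 0.568 over 6 pairs of groups), so the labels' shared experiment was kept as the pairing. Replicates correlated at 0.946 to 0.951, and no replicates held the same values.

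Gene names came from the platform annotation, brought to current symbols, which gave 1 gene for 20826 probe sets. The probe set of highest mean stood for its gene. Genes named were up to 25 rises and 12 falls by size, called list members, up to 8 that agreed without a call, up to 5 unequal or opposite, up to 5 each way against COR and CVZ, and the receptors. Further genes are marked where they stand. The members, the 28 lists and this rule were chosen with earlier results of these data known. Other scalings, pseudocounts, filters, blocks and array sets were tried.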

Additional observations from a re-analysis of the deposited data

How the results depend on the processing

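The counts called under ALD depended most on the replicate block and on the trend. Without the replicate block (no replicate block) 14 probe sets were called up and 0 down (399 at an unadjusted p below 0.05), 0 between ALD and COR (253) and 22 between ALD and CVZ. Without the trend there were 17 up and 0 down (1440), 0 between ALD and COR (1098) and 85 between ALD and CVZ. With no change a share of 0.05 of the 18625 tested probe sets is expected at that unadjusted p. The 399 and the 253 without the block lie under that share. The number called down, 16 in the reported fit, was 37 with quantile normalization, 28 with trimmed-mean scaling and 52 with the 4 ALD and vehicle arrays alone (1 residual degree of freedom), and 7 to 24 when an ALD or vehicle array was left out. The number called up was 105 to 218 over the same arrays. Between ALD and COR (70 reported) no filter gave 41, and leaving out an array gave 13 to 64. Between ALD and CVZ (828) leaving out an array gave 522 to 590. The agreeing counts (228 up, 114 down) became 835 up and 821 down with no filter, 126 and 26 with the filter at the 60th percentile, 704 and 487 with the lower fold minimum and 62 and 10 at 2-fold, and 59 down with the pseudocount at the 25th percentile. With trimmed-mean scaling 194 agreed upward and 158 downward. At an unadjusted p below 0.05 that scaling gave 1801 probe sets, 855 of them down, against 1719 and 551 in the reported fit. The causes were not tested beyond the settings' own construction. Of the 115 called genes 0 changed sign under any setting, 109 lost the call without the block, 108 without the trend, 68 without some array, 25 with another filter, 16 with all 12 arrays, 15 with another scaling, 14 with the 4 arrays alone and 1 with another pseudocount. Of 127 named genes that were not called 6 became called under some setting. The median of the GR targets stayed between 0.44 and 0.63. No setting moved the median of all tested probe sets by over 0.1 on the log2 scale.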

Other observations

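Lpin1, Srebf1, Plin4 and Mid1ip1 were called genes outside the naming rule, chosen after their values were seen. Lpin1, a phosphatidate phosphatase, had 12.1 and 11.96 with ALD against 8.49 and 8.07 with vehicle (log2 0.54 ± 0.11, adjusted p = 0.0152), and Srebf1, a transcription factor of lipogenesis, had 11.8 and 14.1 with ALD against 8.73 and 7.96 with vehicle (log2 0.63 ± 0.12, adjusted p = 0.00902). Plin4, a lipid droplet protein, had 2.48 and 3.22 with ALD against 1.33 and 1.91 with vehicle (log2 0.80 ± 0.18, adjusted p = 0.0313), and Mid1ip1, an activator of acetyl-CoA carboxylase, had 15.6 and 24.2 with ALD against 9.40 and 11.7 with vehicle (log2 0.89 ± 0.11, adjusted p = 0.00015). All 4 were higher with ALD in both experiments without overlap of the groups. Second probe sets of Srebf1 (log2 0.41) and Lpin1 (log2 0.44) were not called. Leaving out 1 array ended the calls of Lpin1, Srebf1 and Plin4, but not that of Mid1ip1. The adjusted p was then 0.169 (second ALD array) and 0.139 (second vehicle array) for Srebf1. For Lpin1 and Plin4 any of the 4 arrays did so, with 0.0565 to 0.156 for Lpin1 and 0.0933 to 0.193 for Plin4.

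Further called genes were chosen after their values were seen. Herpud1, a protein of endoplasmic reticulum degradation, had 47.5 and 39.5 with ALD against 26.4 and 17.4 with vehicle (log2 1.02 ± 0.09, adjusted p = 5.3e-06), and Amd1, an enzyme of polyamine synthesis, had 14.7 and 19.5 with ALD against 8.14 and 7.16 with vehicle (log2 1.14 ± 0.13, adjusted p = 4.3e-05). Slc39a14, a zinc transporter, had 34.7 and 23.2 with ALD against 17.1 and 13.1 with vehicle (log2 0.92 ± 0.10, adjusted p = 2e-05). Bcl2l11 (BIM), which promotes apoptosis, had 17.3 and 23.0 with ALD against 12.7 and 12.7 with vehicle (log2 0.65 ± 0.12, adjusted p = 0.00564), and its adjusted p was 0.112 without the second ALD array and 0.116 without the second vehicle array. Herpud1, Amd1, Slc39a14 and Bcl2l11 did not overlap between groups. Bcl2l11 was called on 1 of its 3 tested probe sets, and another stood at log2 0.02.

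Of the 204 called probe sets 54 have no gene name in the annotation used here, 52 up and 2 down. The largest change among these was that of a probe set with 21.5 and 20.4 with ALD against 0.868 and 1.36 with vehicle (log2 4.18 ± 0.16, adjusted p = 5.8e-11). The next largest had 6.03 and 6.90 with ALD against 0.463 and 0.403 with vehicle (log2 3.70 ± 0.18, adjusted p = 1e-09). The 2 that fell had 20.2 and 7.18 with ALD against 28.4 and 13.9 with vehicle (log2 -0.72 ± 0.13, adjusted p = 0.00555) and 23.0 and 32.1 with ALD against 38.2 and 37.4 with vehicle (log2 -0.48 ± 0.11, adjusted p = 0.0385). The called changes were larger in the second experiment in 134 probe sets and in the first in 70. Of the 115 called genes 46 had several tested probe sets, 43 of these had the same sign in all of them and 20 had more than 1 called.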
